A study of Drosophila melanogaster with 6 samples.

Results

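The genes zuc, Fs(2)Ket, tai, Sxl, cher, png and BigH1, 7 of the 7350 genes named on the arrays of the series, have known roles in the germline, the egg or sex determination. They were chosen by these roles and with their log ratios on the ovary and S3 arrays in view, so those ratios are a description and were not tested. Spots were matched to them by Entrez gene number, under the current symbols of Release 6 of the Drosophila melanogaster genome. All 7 were found on the ovary arrays, among 2377 genes. On the S3 arrays 4 of them, zuc, tai, png and BigH1, were found among 6795 genes.

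The RNA came from flies given methotrexate at 5 ppm for 5 days, whose ovaries were then dissected (2 arrays), and from S3 cells, a cultured Drosophila line, given methotrexate at 5.2e-08 M for 4 days (4 arrays). Methotrexate is an antifolate that blocks dihydrofolate reductase. On each 2-colour spotted cDNA array RNA of treated material was set against RNA of untreated material of the same kind. The labels name no strain or age for the flies, and do not say whether arrays came from separate flies or cultures, so every spread given here is a spread between arrays that may be technical.

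In the fly ovary, nurse cells feed the oocyte through ring canals, a sheath of follicle cells builds the eggshell, and border cells migrate through the egg chamber. Small piRNAs made in germ cells silence transposons. The egg is loaded with RNA and protein that run the first embryonic divisions, before the zygotic genome is switched on. The 7 genes act at different points of this sequence. Zucchini (zuc) is an endonuclease on the mitochondrial surface that cuts piRNA precursors. Sex-lethal (Sxl) is an RNA-binding protein that directs female splicing in the soma and is needed for germ cells to enter oogenesis. Taiman (tai) is a coactivator of the ecdysone receptor and is required for border cell migration. Cheerio (cher) is filamin, an actin crosslinker of the ring canal rim. Pan gu (png) is a protein kinase that acts with Plutonium and Giant nuclei to switch on maternal translation at egg activation. Fs(2)Ket is importin beta, which carries cargo into the nucleus, and dominant female-sterile mutations of it arrest the early embryo. BigH1 is the linker histone of the germline and the early embryo.

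Values are log2 ratios of the 2 channels of an array, and neither the labels nor the values say which channel was the numerator. A positive or negative sign therefore carries no direction relative to methotrexate. In ovary the labels give Cy5 to the treated RNA of both arrays, although the series text speaks of swapped dyes, so that a dye effect of a gene and an effect of treatment cannot be told apart in ovary. Ratios hold no level, so the tissue labels could not be checked against marker genes. In whole ovaries, fewer cells of a type and less RNA per cell cannot be told apart. The gene ratios of the ovary arrays correlated at r = 0.753 and those of pairs of S3 arrays at r from -0.187 to 0.206, over genes that are no replicates of each other. Neighbouring duplicate spots of a gene correlated at 0.903 and 0.841 on ovary arrays 1 and 2, and at 0.292 to 0.454 on the S3 arrays. Precision is limited by how few arrays there are.

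On the ovary arrays, with each array centred on its median, 4 of the genes had positive ratios (zuc, BigH1, Fs(2)Ket and cher) and 3 had negative ones (tai, Sxl and png), with the same sign on both arrays for 7 of 7. The same was true of 1950 of the 2377 genes (82.0%). The mean passed 1.5-fold for 5 of the 7, in the contrast with which they had been chosen, beside 45.3% of all genes. The median size of the mean log2 ratio, without its sign, was 1.07 for the 7 genes and 0.54 for all genes. Each of the 7 genes was spotted as 1 neighbouring pair, and ovary array 1 was wider than array 2 over all spots (SD 0.885 and 0.693 log2).

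**Figure D1:**
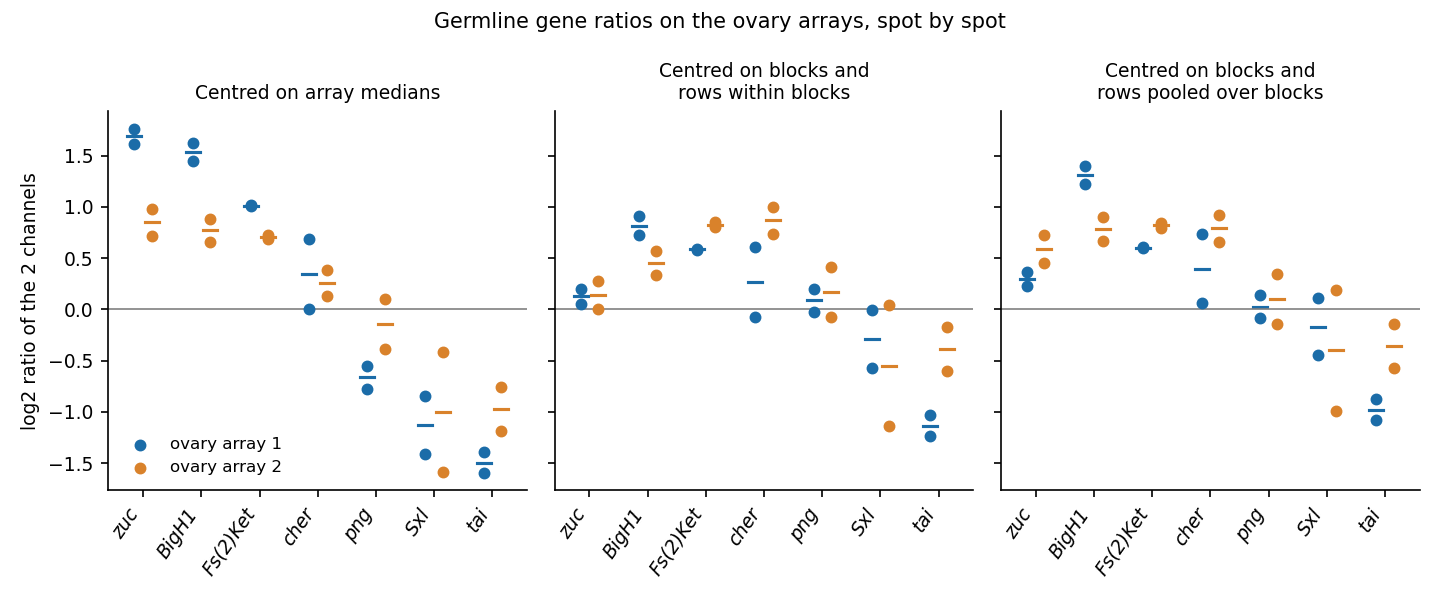
Log2 ratios of the 7 genes on ovary arrays 1 and 2 (blue and orange), each point 1 spot and each bar the mean of the 2 spots, after 3 ways of centring. With array medians subtracted zuc stands highest at a mean of 1.27 and tai lowest at -1.24. With rows within blocks centred zuc lies at 0.13, and Fs(2)Ket at 0.71 and tai at -0.76 are the ends.

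Where a spot lay on the slide bears on these ratios. The ovary design was taken as 32 blocks of 22 rows of 24 spots, an inferred layout. Only the number of rows was checked against the values, and the row length of 24 spots was not tested. The medians of successive rows correlated at 0.465 (array 1) and 0.523 (array 2) at a distance of 22 rows, but more strongly, at 0.634 and 0.543, at 44 rows, which is a pair of such blocks. A period of 44 rows would leave values centred on single rows as they are, but could move those of rows pooled over blocks, which was not tested. With blocks centred the rows held 21.1% (array 1) and 17.8% (array 2) of the spot variance. Row medians ran from 1.02 in row 1 to -0.75 in row 21 on array 1, and from 0.57 in row 11 to -0.46 in row 21 on array 2. The row medians of the 2 arrays correlated at r = 0.935 over the 22 rows, which share their spots. Each ratio is therefore also given after centring on blocks and on each row of each block, called row-centred here, and after centring blocks and then rows on their median over all blocks, called pooled rows. Row centring also takes away any real difference that the genes of a row have in common, and the share of each was not tested. The median size of the 7 means was then 0.57 with rows within blocks centred, against 0.30 for all genes, and 3 of the 7 passed 1.5-fold beside 25.7% of all genes. With rows pooled it was 0.60 against 0.37, with 4 of the 7 past 1.5-fold beside 31.2%.

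**Figure D2:**
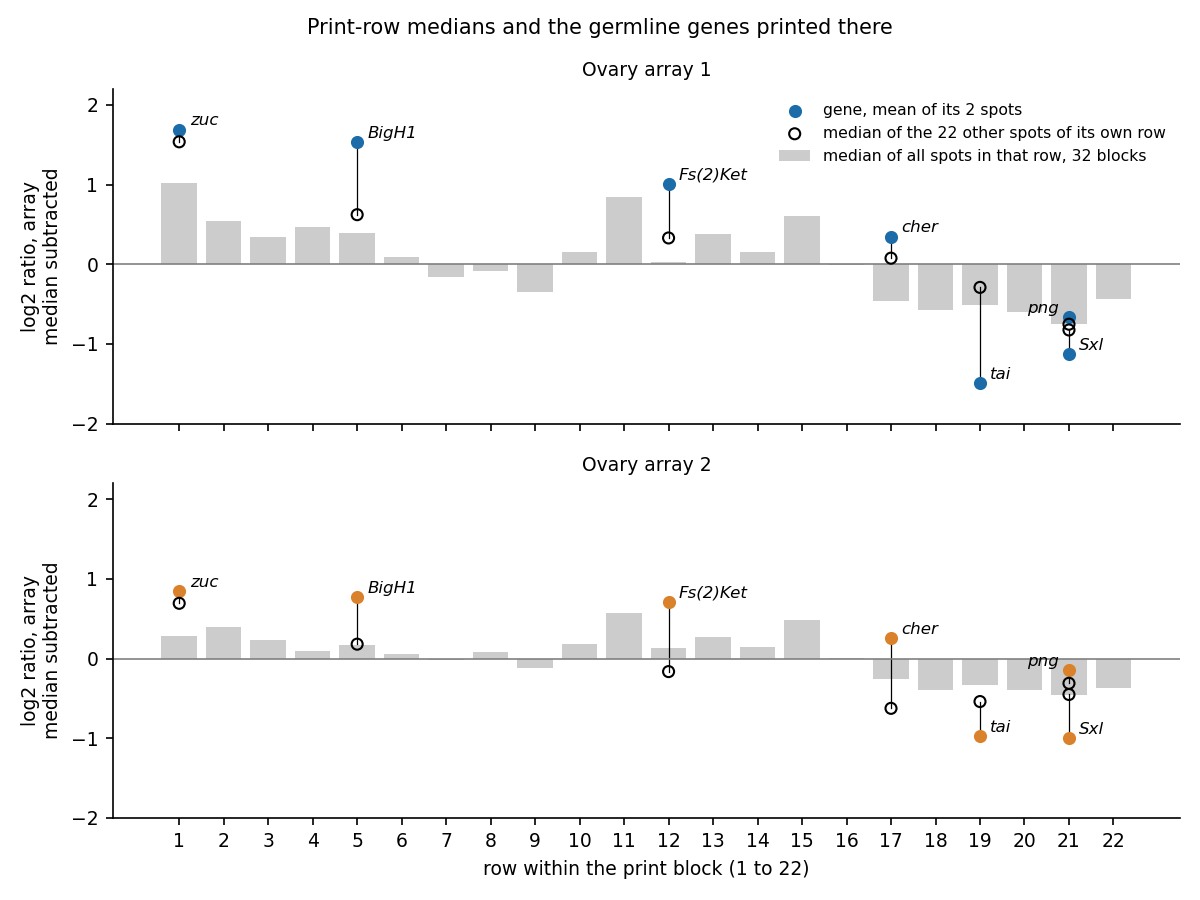
Row of the print block (x axis, 1 to 22) against log2 ratio with array medians subtracted, for ovary array 1 (top) and array 2 (bottom). Grey bars are medians of all spots of that row over 32 blocks, filled points the 7 genes and open circles the median of the 22 other spots in each gene's own row. On array 1 zuc at 1.69 lies close to its row's 1.54, while tai at -1.50 lies far below its row's -0.29.

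In the piRNA pathway, the 2 spots of zuc read 1.62 and 1.76 on ovary array 1 and 0.98 and 0.72 on array 2. All 4 values were positive, and the mean of 1.27 ± 0.60 (SD, n = 2 arrays) was above that of 95.2% of ovary genes. The gene sits in row 1 of block 1. The 22 other spots of that row, 11 pairs of other clones, had a median of 1.54 on array 1 and 0.69 on array 2, and 7 and 3 of them were higher than zuc. Row-centred, zuc was at 0.13 and 0.14 on the arrays (mean 0.13 ± 0.01, SD, n = 2), above 62.9% of genes. With rows pooled it was at 0.30 and 0.59, a mean of 0.44 ± 0.21 (SD, n = 2). The ratio of zuc was thus close to the median of its row, though on array 2 it lay above 19 of its 22 row neighbours.

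Of the other piRNA genes on a list written from known roles, 6 were on the ovary arrays. The list genes piwi, aub, AGO3, vas, spn-E and armi were not among the genes measured there. Over all 2377 genes limma called 926 (39.0%) at an adjusted p under 0.05, with 20.9% of all genes called positive and 18.0% negative, the shares beside which each list count stands. With 1 residual degree of freedom, the ovary fit on array medians used 1 standard error, 0.276, for every gene, so its calls follow the size of the mean alone. Among the list genes the adjusted p with pooled rows also followed the size of the mean alone, but the row-centred one did not. With array medians the 6 piRNA genes gave 0 positive and 3 negative calls. Gasz, a scaffold protein of the mitochondrial surface where Zuc works, read -1.001 and -1.14 (mean -1.07 ± 0.10, SD, n = 2; limma adjusted p = 0.00101). The Tudor-domain gene tapas read -1.05 and -0.52 (limma adjusted p = 0.0170). mael, needed for silencing downstream of piRNAs, read -0.74 and -0.71 (limma adjusted p = 0.0277). After row centring limma called 615 genes (25.9%), 14.7% positive and 11.1% negative. Gasz at -1.24 and tapas at -1.15 were among them, and mael at -0.21 was not (limma adjusted p = 0.468). With pooled rows Gasz (-1.04) and tapas (-0.91) passed again and mael (-0.25) did not. Hen1 passed with pooled rows (-0.81, limma adjusted p = 0.00325) but not row-centred (-0.64, limma adjusted p = 0.0609), so 3 of 6 were called with pooled rows. The median of the 6 means was -0.58 with array medians and -0.43 with rows centred.

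Sxl read -0.85 and -1.41 on the 2 spots of ovary array 1 and -0.41 and -1.59 on array 2. The array means, -1.13 and -1.001, were close to each other (mean -1.07 ± 0.09, SD, n = 2) and below those of all but 1.94% of genes. The spots of the pair were not: they differed by 1.18 on array 2, where 99.1% of the 2833 gene pairs lay closer, and by 0.56 on array 1 (87.5% closer). The small spread between arrays thus covers a large spread between spots of 1 gene. Sxl lies in row 21, the lowest row of both arrays. Row-centred, it read -0.29 and -0.55 (mean -0.42 ± 0.18, SD, n = 2), and 1 of its spots was at -0.01 and 0.04 while the other was at -0.57 and -1.14. With pooled rows the mean was -0.28, and the first of these spots was positive on both arrays, at 0.11 and 0.19.

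The other genes of sex determination and dosage compensation gave no call: 0 of 8 passed on the ovary arrays with array medians or row centring, 1 passed with blocks alone centred and 1 with pooled rows. The smallest p-values belonged to SF2, a splicing factor, at -0.59 and -0.63 (limma adjusted p = 0.0625), and to the RNA helicase gene Rm62, at -0.04 and -0.97 (limma adjusted p = 0.125). With array medians the splicing targets of the pathway were split in sign between arrays. tra, whose splicing Sxl controls, read 0.16 and -0.48, dsx read 0.23 and -0.39, and fru read 0.11 and -0.69. Row centring moved the means of tra, dsx and fru to the positive side, that of fru to 0.09 row-centred and 0.12 with pooled rows. tra had a mean of 0.49 row-centred (limma adjusted p = 0.160) and 0.62 with pooled rows (limma adjusted p = 0.0281), which was the pooled-row call. dsx had means of 0.56 (limma adjusted p = 0.0542) and 0.44 (limma adjusted p = 0.146).

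Among follicle and border cell genes, tai gave the lowest ratio of the 7 genes. Its spots read -1.60 and -1.39 on array 1 and -0.76 and -1.19 on array 2, a mean of -1.24 ± 0.37 (SD, n = 2), and only 0.715% of genes had a lower mean. It lies in row 19, whose spots over all blocks had medians of -0.51 and -0.33. Within its own row it was still low: 19 of 22 other spots were higher on array 1 and 20 of 22 on array 2. The row-centred values of tai were -1.14 and -0.39 (mean -0.76 ± 0.53, SD, n = 2), and with pooled rows it read -0.98 and -0.36. All 4 spot values remained negative under both.

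Of 11 other genes on the list written for follicle cells, border cells and eggshell, which also holds the yolk receptor gene, 4 were called positive, 1 negative and 6 did not pass. None of the eggshell protein genes named Cp or Vm on the list was among the genes measured in ovary. The same holds for slbo, Stat92E, dome and Egfr. Patj, a scaffold of the apical Crumbs complex, read 1.34 and 1.24 (mean 1.29 ± 0.07, SD, n = 2; limma adjusted p = 6.25e-05). hep, the kinase upstream of Jun kinase, read 1.39 and 0.69. br, an ecdysone-induced transcription factor gene that patterns the eggshell, read 0.72 and 0.92 (limma adjusted p = 0.0126). The negative call was yl, the yolk protein receptor gene, at -0.98 and -0.64. Patj passed under both row centrings, at 1.23 row-centred and 0.83 with pooled rows, and yl under neither. The others depended on which was used. br passed row-centred (0.72) but not with pooled rows (0.42, limma adjusted p = 0.166). hep did the opposite, at 0.47 row-centred (limma adjusted p = 0.0934) and 1.49 with pooled rows (limma adjusted p = 2.09e-08).

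The hormone pathway that Tai serves had 5 other genes on the ovary arrays, with 3 positive calls and 1 negative call. rig, whose product binds several proteins of ecdysone response, read 1.70 and 2.03 (mean 1.87 ± 0.24, SD, n = 2; limma adjusted p = 5.09e-09). The nuclear receptor gene ftz-f1 read 1.69 and 0.93 (limma adjusted p = 4.76e-05). br was the other positive gene, and DopEcR, a membrane receptor for dopamine and ecdysteroids, read -0.82 and -0.63. rig and ftz-f1 passed under both row centrings, at 1.64 and 0.87 row-centred and 1.32 and 0.72 with pooled rows. br passed row-centred only, and DopEcR only with pooled rows (-0.57, limma adjusted p = 0.0464), being at -0.20 row-centred. The mean of tai was thus negative where 4 of the 5 others had a positive mean, 3 of them called. The signs have no known direction.

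cher, the ring canal filamin, had the ratio nearest 0 of the 7 genes. Its spots read 0.01 and 0.69 on array 1 and 0.13 and 0.39 on array 2 (mean 0.30 ± 0.06, SD, n = 2), above 66.4% of genes. It lies in row 17, a low row, and row centring moved it the other way from zuc. On array 2 0 of the 22 other spots of its row were higher, and on array 1 10 of 22 were. Row-centred, cher read 0.27 and 0.87 (mean 0.57 ± 0.43, SD, n = 2), above 84.6% of genes, and with rows pooled 0.40 and 0.79. Its row-centred spots on array 1 were at -0.07 and 0.61. That pair differed by 0.68, and 92.4% of gene pairs on array 1 lay closer. With blocks alone centred the 2 arrays differed in sign, at -0.01 and 0.50.

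Of 7 other genes of ring canals and the nurse cell cytoskeleton 1 passed, on the negative side. This was cpa, the actin capping protein subunit, at -0.96 and -0.83 (mean -0.89 ± 0.09, SD, n = 2; limma adjusted p = 0.00635), which also passed row-centred at -1.20 and with pooled rows at -0.83. flw, a catalytic subunit of protein phosphatase 1 that acts on myosin, had the next smallest p at -0.59 and -0.58 (limma adjusted p = 0.0752). The share of 1 in 7 is below the background of 39.0%, and no test of that difference was made. With pooled rows 2 of the 7 passed (28.6%, beside 32.3% of all genes). The second was SCAR, at -0.69 (limma adjusted p = 0.0142).

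At egg activation, png read -0.55 and -0.78 on ovary array 1 and -0.38 and 0.10 on array 2, a mean of -0.40 ± 0.37 (SD, n = 2), with 36.3% of genes lower. Like Sxl it lies in row 21. The 22 other spots of its row had medians of -0.75 and -0.31, so png was above the median of its neighbours on both arrays. Row-centred, it read 0.09 and 0.17 and with rows pooled 0.03 and 0.10, on the other side of 0 but near it. Its 2 spots differed in sign on each array under both row centrings. Row-centred, png spots were at 0.20 and -0.02 on array 1 and at -0.07 and 0.41 on array 2. Its partner gene plu, also printed in row 21, read -0.94 and -0.38 (mean -0.66 ± 0.40, SD, n = 2; limma adjusted p = 0.0444), but -0.13 with rows within blocks centred (limma adjusted p = 0.691). The kinase gene and its partner thus shared their negative sign with the row that holds both.

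The linker histone gene BigH1 read 1.45 and 1.63 on ovary array 1 and 0.66 and 0.89 on array 2, a mean of 1.15 ± 0.54 (SD, n = 2), above 92.9% of genes. It lies in row 5, and in that row of its block 2 of 22 other spots were higher on array 1 and 3 of 22 on array 2. Its row-centred values were 0.82 and 0.45 (mean 0.64 ± 0.26, SD, n = 2), and with rows pooled 1.31 and 0.79 (mean 1.05 ± 0.37, SD, n = 2). All 4 spots stayed positive under each centring. BigH1 was larger on array 1 by more than the distance between its spots, which differed by 0.18 and 0.23.

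Of the 5 other egg activation and early embryo genes, 1 passed on each side. CanA-14F, a catalytic subunit of calcineurin, the phosphatase that acts at egg activation, read 1.29 and 1.32 (mean 1.30 ± 0.02, SD, n = 2; limma adjusted p = 5.35e-05). It lies in row 1 and was at 0.53 with rows within blocks centred (limma adjusted p = 0.0651) and at 0.64 with rows pooled (limma adjusted p = 0.0245). plu was the negative call. The poly(A) polymerase gene wisp read 0.57 and 0.29, and smg, which directs the decay of maternal RNA, read 0.65 and 0.49 (limma adjusted p = 0.0831).

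The ratio of Fs(2)Ket, the importin beta gene, repeated best between its spots. They read 1.02 and 1.01 on array 1 and 0.69 and 0.73 on array 2, a difference of 0.01 and 0.04 where the median pair differed by 0.23 and 0.22. The mean was 0.86 ± 0.22 (SD, n = 2), above 85.4% of genes. Row-centred, where its mean moved least of the 7 genes, it read 0.59 and 0.83 (mean 0.71 ± 0.17, SD, n = 2) and with pooled rows, where the mean of BigH1 moved less, it read 0.60 and 0.82. In its row, row 12 of block 25, 1 of 22 other spots was higher on array 1 and 0 of 22 on array 2. cher lies in the same block.

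Nuclear transport was also the best covered of the lists, with 14 other genes, with 5 positive and 3 negative calls and 6 that did not pass. Cse1, the exporter that returns importin alpha to the cytoplasm, read 1.57 and 0.97 (mean 1.27 ± 0.42, SD, n = 2; limma adjusted p = 8.09e-05). Tnpo-SR, an importer of splicing factors, read 0.91 and 1.57, and the nuclear pore gene Nup107 read 1.74 and 0.61. On the negative side were Ranbp21 at -1.23 and -0.53, Apl at -0.69 and -0.84, and Rcc1, the exchange factor that loads Ran with GTP, at -0.51 and -0.94. After row centring Tnpo-SR (0.67) and Ranbp21 (-0.74) passed, as they did with pooled rows (1.25 and -0.97). Cse1 (0.11, limma adjusted p = 0.735) and Nup107 (0.49, limma adjusted p = 0.103), both in row 1, did not pass row-centred but did with pooled rows, at 0.63 (limma adjusted p = 0.0263) and 0.67 (limma adjusted p = 0.0168). Apl (-0.33 row-centred) and Rcc1 (-0.37 row-centred) passed under neither.

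Among 10 genes of germline stem cells and meiosis 3 calls were positive and 2 negative. They were c(2)M at 0.83, c(3)G at 0.76 and the transcription factor gene lola at 0.73, and cona at -0.91 and mei-9, which encodes a DNA repair nuclease used in crossing over, at -0.87. c(2)M, c(3)G and cona all encode parts of the synaptonemal complex, the structure that joins paired chromosomes in meiosis. No call of the 5 held under both row centrings. Row-centred, c(3)G passed at 0.78, and with pooled rows it was at 0.27 (limma adjusted p = 0.420). With pooled rows mei-9 passed at -0.63 (limma adjusted p = 0.0265), and row-centred it was at -0.28 (limma adjusted p = 0.362). c(2)M, at -0.01 row-centred, lola and cona passed under neither. Of 12 genes of oocyte polarity and mRNA localisation 2 passed, both positive: heph at 1.88, an RNA-binding protein that acts on oskar RNA, and twin at 0.69, a subunit of the deadenylase. heph passed under both row centrings (1.18 row-centred and 1.58 with pooled rows) and twin under neither (0.19 and 0.27).

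**Figure D3:**
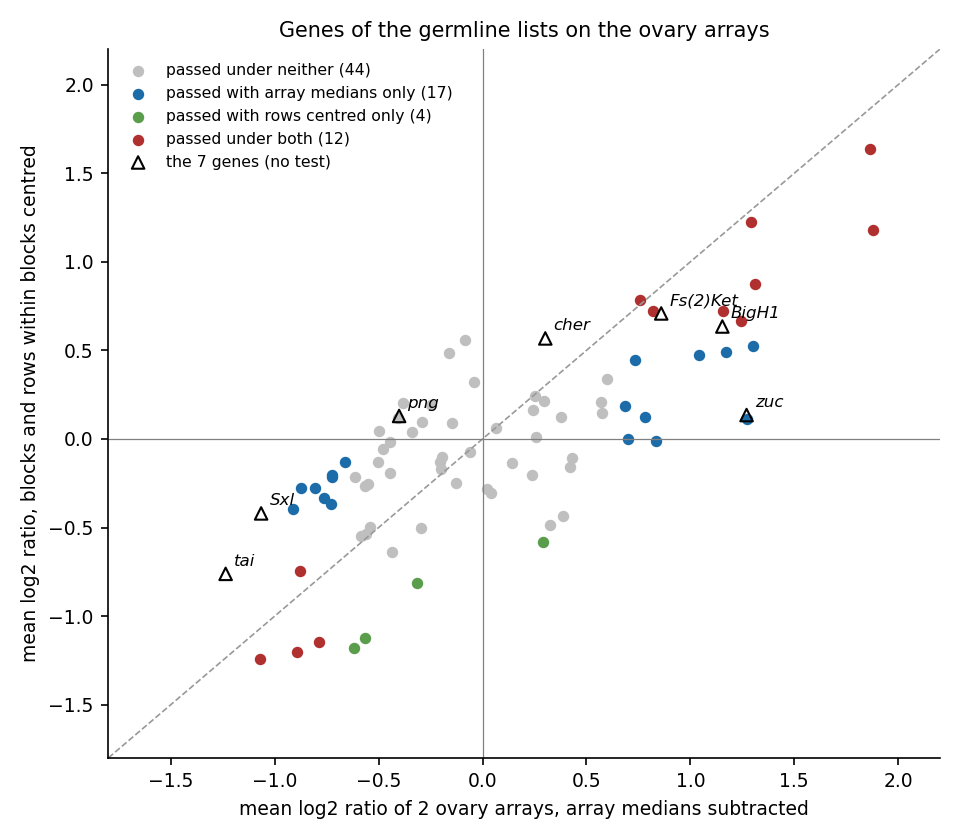
Mean log2 ratio over the 2 ovary arrays with array medians subtracted (x axis) against the same with blocks and rows within blocks centred (y axis), for the 77 other genes of the 9 germline lists (points, coloured by limma adjusted p under 0.05) and the 7 genes (triangles, not tested). Of the 77, 12 passed under both, 17 with array medians only and 4 with rows centred only; zuc lies far below the dashed line of equal values and cher above it.

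The 9 lists together hold 454 gene names, and only 77 genes besides the 7 were measured on the ovary arrays. With array medians 29 of them passed (37.7%), 17 on the positive and 12 on the negative side, near the 39.0% of all genes. After row centring 16 passed (20.8%, beside 25.9% of all genes), 8 on each side, and with rows pooled 21 passed (27.3%, beside 32.3%). Of the 29 genes, 12 (41.4%) kept call and sign with rows within blocks centred and 16 (55.2%) with rows pooled. Over all genes the shares were 40.6% and 54.1% of 926. The median of the 77 means was -0.13 with array medians. Genes on lists written for other tissues that a dissection could carry also passed. The counts were 3 of 6 muscle genes, 1 of 2 neuron genes, 0 of 2 fat body and gut genes and 2 of 5 hemocyte genes. Their list medians were -0.55, -0.06, -0.23 and -0.53. Whether these genes are limited to tissue outside the ovary was not tested. The 2 hemocyte calls were positive, against the sign of their list median. Of the muscle calls 1 was positive and 2 were negative, and the neuron call was negative. After row centring 1 of 6 muscle genes, 1 of 2 neuron genes, 0 of 2 fat body and gut genes and 3 of 5 hemocyte genes passed, with medians of -0.03, -0.62, 0.09 and 0.16. Their part in the ratios of the germline genes was not tested.

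The order of the 7 means on the ovary arrays, from high to low, was zuc, BigH1, Fs(2)Ket, cher, png, Sxl and tai. Neighbours zuc and BigH1 differed by less than the SD between arrays of either, as did tai and Sxl by less than the SD of tai. Row-centred, the order was Fs(2)Ket, BigH1, cher, zuc, png, Sxl and tai. The first 3 lay between 0.57 and 0.71, within the SD of cher. Genes with the nearest pair of ovary values, by Euclidean distance over the 2 arrays among 2376 genes, were Pfdn4 and CG3662 for Fs(2)Ket (0.02 each), B52 (0.01) for cher, Hcf (0.05) for tai, Obp19a (0.04) for Sxl, EndoU (0.03) for BigH1, CG10307 (0.03) for png and CG11674 (0.06) for zuc. Such distances rest on 2 values each.

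In S3 cells png had the largest ratio of the 4 genes measured. Its values per array, with array medians subtracted and signs as in the files, were -0.80, 1.38, -1.04 and -1.01 on arrays 1 to 4. Array 2, whose treated RNA is labelled Cy5 where arrays 1, 3 and 4 have Cy3, had the opposite sign to the other 3. The correlation of array 2 with the others averaged -0.0230 over 6764 genes, so it was turned by rule, but a mean so near 0 does not settle its sign. With blocks centred it correlated positively with arrays 1, 3 and 4 as deposited, at 0.0954, 0.0605 and 0.143. With array 2 turned png had a mean of -1.06 ± 0.24 (SD, n = 4), with 0.163% of genes lower, and with array 2 as deposited a mean of -0.37 ± 1.17 (SD, n = 4). Each array value is a mean of a pair that did not repeat well: the spots read -1.40 and -0.20 on array 1, 1.46 and 1.30 on array 2, -0.16 and -1.93 on array 3 and -0.38 and -1.65 on array 4. They differed by 1.20, 1.76 and 1.27 on arrays 1, 3 and 4, where the median pair differed by 0.40, 0.34 and 0.40. With print blocks centred png read -0.53, 0.84, -0.78 and -1.22, so array 2 again stood on the other side.

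BigH1 read 0.36, -0.50, 0.22 and 0.24 on S3 arrays 1 to 4, again with array 2 alone on the other side. Its mean was 0.33 ± 0.13 (SD, n = 4) with array 2 turned and 0.08 ± 0.39 with it as deposited, and with blocks centred 0.27 ± 0.16 and 0.09 ± 0.34. zuc read 0.02, -0.55, 0.57 and -0.36, and had no common sign under either reading of array 2 (mean 0.19 ± 0.45 turned and -0.08 ± 0.49 as deposited; SD, n = 4). tai, with 4 spots, read 0.25, 0.07, -0.32 and 0.59, a mean of 0.11 ± 0.40 turned and 0.15 ± 0.38 as deposited (SD, n = 4). On array 3, 1 of its spots had no value and 1 read -1.36 where the other 2 read 0.11 and 0.28. The ovary ratios of zuc and tai, large with array medians, thus stood beside S3 means smaller than their own SD. Row-centred, the ovary mean of zuc was only 0.13, and that of tai was -0.76. The difference between ovary and S3 was not tested, because the designs differ and their signs cannot be matched.

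**Figure D4:**
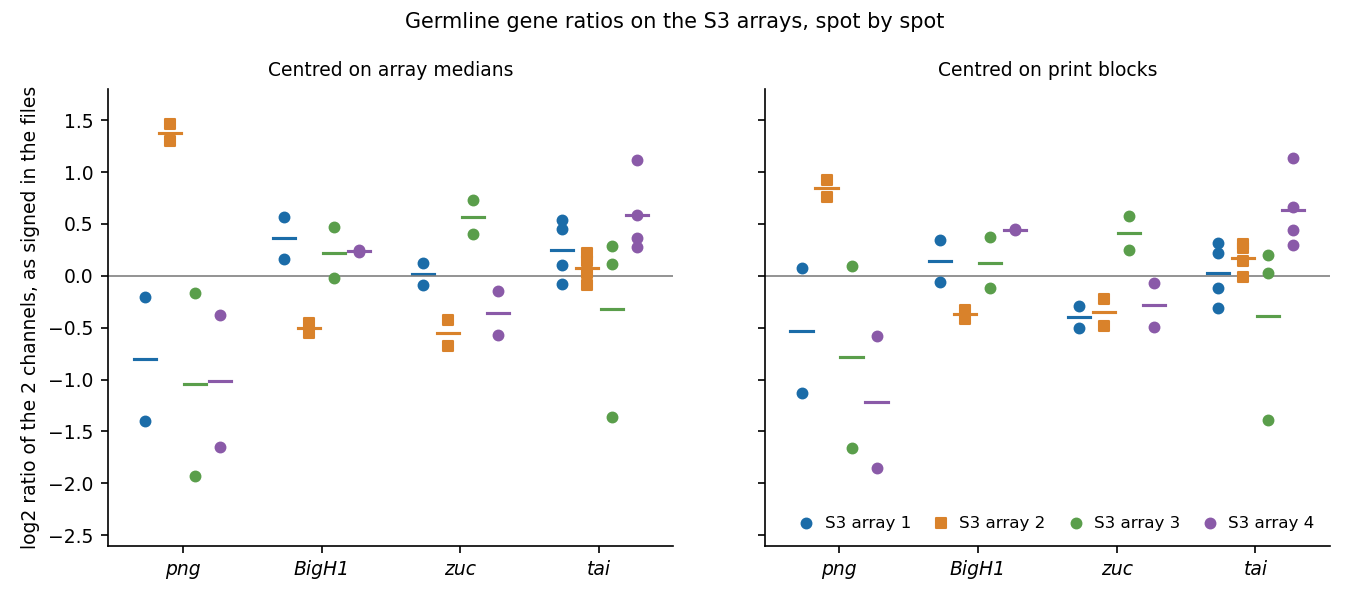
Log2 ratios of png, BigH1, zuc and tai on S3 arrays 1 to 4 with signs as in the files, each point 1 spot and each bar the mean of a gene's spots on an array, with array medians subtracted (left) and with print blocks centred (right). Array 2, the array with the other dye assignment, is drawn as squares: it lies at 1.38 for png where the other 3 arrays lie between -1.04 and -0.80.

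Of the other genes of the 9 lists, 192 were measured on the S3 arrays and 0 passed, as did 0 of all 6764 genes (0%) with array 2 turned. At an unadjusted p under 0.05 limma gave 505 genes (7.47%). With array 2 as deposited 3 genes passed (0.0444%), with 417 at an unadjusted p under 0.05 (6.16%), and with blocks centred as well 0 passed (0%), with 644 at an unadjusted p under 0.05 (9.52%). None of the 192 passed under these settings. List genes were then ranked by p-value with array medians and array 2 turned. The smallest p-values on the negative side belonged to the yolk protein gene Yp2 at -0.74 ± 0.28, the piRNA loading factor gene shu at -0.62 ± 0.36 and cort, an activator of the anaphase-promoting complex in the egg, at -0.56 ± 0.40 (SD, n = 4 each). On the positive side they belonged to Psi, a splicing regulator, at 0.58 ± 0.26, yem, a histone chaperone gene, at 0.48 ± 0.41, and yps, a Y-box RNA-binding protein gene, at 0.47 ± 0.38 (SD, n = 4 each). The limma adjusted p of each was 0.650 in that setting. With blocks centred and array 2 as deposited Yp2 was at -0.20, shu at -0.24, cort at -0.24, Psi at 0.26, yem at 0.36 and yps at 0.52.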

How the data were processed

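The deposited values are log2 ratios of the 2 channels per spot, with 1 column per array; base 2 was assumed, since base, background correction, normalization and numerator are not given in the sources used here. Before centring the array medians were 0.08, -0.02, 0.06 and 0.18 on S3 arrays 1 to 4, and 0.11 and 0.06 on ovary arrays 1 and 2. Of 16896 ovary spots 5666 had 1 gene, 152 several and 11078 none; of 27648 S3 spots the numbers were 15116, 102 and 12430. Spots were named through the platform annotation, by Entrez number (6692 of 6795 S3 genes and all 2377 ovary genes had a current symbol), and spots of 1 gene were averaged per array. S3 was taken as 48 blocks of 576 spots; a period of 24 rows was not visible in S3 values (autocorrelation -0.02 to 0.10), and rows were centred only as an alternative there. Genes with values on every array were tested against 0 with limma 3.58.1 in R 4.3.3 (two-sided, Benjamini-Hochberg over all genes of a design). With only 1 residual degree of freedom in ovary, limma gave every ovary gene the same standard error with array medians. Its adjusted p with pooled rows likewise followed only the size of the mean among the list genes. Row-centred it did not, so a call under 1 row centring and not the other also reflects unlike fits. The test was tested on simulated data that held no print-row, block or dye effects, so it could not check calls against such effects. The 7 genes and the 9 lists were chosen with earlier results of these arrays known; lists were written from known roles and hold 77 ovary and 192 S3 genes. Named list genes are up to 3 per list and side with the largest means among calls of 1 sign on both arrays, the 2 smallest p where fewer than 2 passed, and on S3 the 3 smallest p per side. The genes wisp, smg, tra, dsx, fru, SCAR and Hen1 were added after their values were seen. Python 3.11.15, pandas 2.3.3 and matplotlib 3.10.9 were used. Alternatives are in the closing section. Sequences and genomic positions are not used here.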

Additional observations from a re-analysis of the deposited data

Results flagged for a closer look

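On the S3 arrays 1 of the 4 values of a gene lay apart from the other 3 in 3 cases, by the gap to the nearest value divided by the range. The ratio was 0.899 for png and 0.839 for BigH1 with array medians and array 2 as deposited, where array 2 was the value apart. It was 0.855 for zuc with print blocks centred and array 2 as deposited, where array 3 was apart at 0.42 and the others lay between -0.40 and -0.28. Each passed Dixon's 95% limit for 4 values, which chance passes in about 1 of 20 groups, and 16 such sets of 4 values were examined. Array 2 is the array with the other dye assignment; its part was not tested.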

How the results depend on the processing

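On the ovary arrays 926 genes and 29 list genes were called. Rows within blocks centred gave 615 and 16; the other sign of array 2 gave 0 and 0, with array medians and with blocks centred. The cause was not tested for the rows; with the other sign the arrays oppose each other by construction. No centring, blocks alone, rows pooled over blocks (added after seeing the data), equal scale, robust eBayes, an adjusted p under 0.10, a 1.5-fold rule and leaving out genes whose spots disagree kept both counts within 1.5 times. With 1 ovary array left out no test was possible. On the S3 arrays 0 genes were called; the other sign of array 2 gave 3 (CG15347, fat-spondin and CG16959), a 1.5-fold rule with no test 376, of which 4 list genes, and leaving out an array 0 to 1 (CG15347, without array 2). Among the 7 genes, png in ovary turned to 0.13 with rows within blocks and 0.064 with rows pooled, and with blocks centred and array 2 turned, added after seeing the data, Fs(2)Ket was at -0.14 and cher at -0.25. With array medians and array 2 turned the 7 ovary means lay between -0.26 (tai and png) and 0.42 (zuc). No paired analysis was possible because S3 and ovary arrays are of different designs and were not compared, and each array already pairs both RNAs. The ratios hold no signal or background, so dim spots could not be told from bright ones.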

Other observations

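A set of 4 list genes, picked out after their values were seen, did not pass in ovary with array medians and passed with rows within blocks centred, all on the negative side. Of the 16 list genes called with rows within blocks centred, 12 had the same call and sign with array medians. Over all genes this held for 376 of 615, so calls gained by this centring were also found outside the lists. The difference between these shares was not tested, and the side of the gained calls over all genes was not examined. Nup153 and zld passed with rows pooled over blocks too (limma adjusted p = 1.07e-04 and 2.35e-04), and Pvf1 and Pop2 did not (limma adjusted p = 0.182 each). The nuclear pore gene Nup153 was at -1.18 (limma adjusted p = 0.00134) against -0.62 with array medians. zld, the activator of the zygotic genome, was at -1.13 (limma adjusted p = 0.00153) against -0.57. Pvf1, a border cell guidance ligand, was at -0.81 (limma adjusted p = 0.0213) against -0.32, with values of -0.71 and 0.08 on the arrays. Pop2, a deadenylase subunit, was at -0.58 (limma adjusted p = 0.0464) against 0.29, so its sign turned. Ran, likewise picked out afterwards, is the GTPase that importin beta binds. It read 1.30 and 1.01 with array medians and had a mean of 0.73 with rows within blocks centred (limma adjusted p = 0.0161) and of 0.88 with rows pooled (limma adjusted p = 0.00124).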
